A study of Mus musculus with 6 samples.

Results

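The BAF complexes of cultured mouse retinal ganglion cells (RGCs) were followed through 10 subunit genes: the ATPases Smarca2 and Smarca4, the scaffold subunits Smarcc1 and Smarcc2, the actin-related subunits Actl6a and Actl6b, and the PHD finger subunits Phf10, Dpf1, Dpf2 and Dpf3. They were chosen by mouse symbol, as subunits that are exchanged between neural progenitors and neurons together with core subunits, and this rule uses no expression value. All 10 were among the 43346 Ensembl genes of the tables and all 10 were among the 15747 genes that passed the filter on low counts.

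BAF complexes, the mammalian SWI/SNF family, use the energy of ATP to slide or evict nucleosomes and so open chromatin at enhancers and promoters. In the developing nervous system the subunit makeup changes when a progenitor leaves the cell cycle: Actl6a (BAF53a) gives way to Actl6b (BAF53b), Phf10 (BAF45a) gives way to Dpf1 (BAF45b) and Dpf3 (BAF45c), and Ss18 gives way to Ss18l1 (CREST). Neuronal BAF is known for its part in dendrite growth, and the exchange of the actin-related subunit is known to be set in part by repression of Actl6a through miR-9* and miR-124, which the REST repressor holds down in progenitors.

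The RGCs came from C57BL/6 mice, were purified by immunopanning with an antibody against CD90.1 and were grown with forskolin, BDNF and CNTF. Each well of 250000 cells received an AAV2 with a mutated capsid at 4 h after plating, at about 100000 vector genomes per cell, and RNA was taken at 72 h. The control AAV encoded EGFP alone, the Sox11 AAV encoded wild-type Sox11 with EGFP (SOX11_WT), and the Sox11 K91A AAV encoded Sox11 with an alanine in place of a lysine that can be SUMOylated, with EGFP (SOX11_MUTANT). All groups thus share the virus, the reporter and the medium, and each held 2 libraries, 6 in all. The promoter in the viruses was not stated. The age of the cells was given as embryonic day 18 for the sequencing, as postnatal day 2 in the general culture protocol and as postnatal day 0 in the names of the deposited tables. Nothing in the sources says that replicates came from separate preparations. The p-values here thus measure the spread between these libraries, which may be technical in part. The source of that spread was not tested.

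Libraries held between 27521982 and 37061718 expected counts, and those of the 10 subunit genes ran from 308 (Actl6a, control replicate 1) to 20403 (Smarca4, Sox11 K91A replicate 1). Sox11, which checks the transduction, was at 234 and 332 CPM (counts scaled to library size with TMM factors) in control, 9178 and 14590 CPM with Sox11 and 11970 and 7026 CPM with Sox11 K91A, with viral and endogenous transcripts counted together. All 12 RGC markers examined were above 10 CPM in every library, but their summed level was 13170 to 13910 CPM in control, 4791 to 8042 CPM with Sox11 and 6438 to 8550 CPM with Sox11 K91A. With Sox11 6 of the 12 were called lower, and with Sox11 K91A 3 of 12. With each virus 2 of the 12 had a log2 fold change above 0. Most of the sum was held by the neurofilaments Nefl (6715 CPM in control, 3146 with Sox11 and 3712 with Sox11 K91A, means of 2) and Nefm (3380, 1073 and 1346 CPM). Both were called lower with Sox11, as were Nefh (144, 23.1 and 28.6 CPM) and Thy1 (707, 153 and 233 CPM). So were Slc17a6 (600, 336 and 332 CPM) and Rbfox3 (92.9, 41.8 and 53.65 CPM). Isl1, a transcription factor of RGCs, was at 265, 275 and 281 CPM and was not called. Summed retinal progenitor markers were at 45.4 to 59.1 CPM in control, 28.9 to 30.9 CPM with Sox11 and 32.3 to 35.8 CPM with Sox11 K91A, where 1 of 10 was called lower with each virus, the intermediate filament gene Nes (36.4, 13.2 and 14.8 CPM), and 4 and 5 of the 10 had a log2 fold change above 0. Summed proliferation markers lay between 61.8 and 68.4 CPM in all 6 libraries, but most of that sum was Pcna (46.88, 53.39 and 52.89 CPM). Of the 8 tested, 0 were called with either virus. The log2 fold change was above 0 for 3 of 8 with Sox11 (median -0.104) and 2 of 8 with Sox11 K91A (median -0.41). Mcm2 (9.396, 4.396 and 4.503 CPM) and Mki67 (0.8253, 0.2844 and 0.2956 CPM) lay lower with both viruses without overlap. Mcm5 lay higher without overlap (3.321, 5.527 and 4.581 CPM). Summed macroglia markers were at 234 to 298 CPM in control, 475 to 479.7 CPM with Sox11 and 475.5 to 502 CPM with Sox11 K91A, with Gfap at 0 in all 6. In that list Glul alone, the glutamine synthetase gene, was called higher with either virus (101, 284 and 289 CPM), S100b was called lower with Sox11, and the 8 genes tested had a median log2 fold change of 0.001 for Sox11 and 0.18 for Sox11 K91A. Summed amacrine and horizontal markers were at 102.5 to 253 CPM in control, 71.0 to 137 CPM with Sox11 and 126.5 to 127 CPM with Sox11 K91A. Most of the control sum was Gad2 (105.5, 36.6 and 38.4 CPM, means of 2). In that list 1 of 8 genes was called lower with each virus, with Sox11 Slc6a9 (22.6 and 5.27 CPM). The log2 fold change was above 0 for 4 of 8 with Sox11 (median -0.187) and 6 of 8 with Sox11 K91A (median 1.155). Gad1 was at 36.2 and 2.83 CPM in control and 17.5 and 2.23 CPM with Sox11. Over the 6 libraries, summed photoreceptor and bipolar markers ran from 1.72 to 3.17 CPM. Those of microglia and macrophages ran from 0.513 to 2.15 CPM, and those of vascular cells and fibroblasts from 12.2 to 24.4 CPM. The part of these differences in the results below was not tested, and in bulk RNA fewer cells of a type cannot be told apart from less RNA per cell. Control replicate 2 and Sox11 replicate 2 separated from the remaining 4 on principal component 2 of all genes (18.2% of the variance), so results are also given without them where a call depends on them. Xist, an RNA made in female cells, was at 400 and 95.9 CPM in control. With Sox11 it was at 526 and 254 CPM, and with Sox11 K91A at 506 and 481 CPM. Its lowest values were thus in these same libraries, and whether the cell pools differed in sex was not tested.

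The subunit genes were examined for 2 kinds of regulatory sequence. The first is the target of miR-9* (miR-9-3p), shown because this microRNA is known to act on Actl6a. Its mature sequence from RefSeq (GRCm38.p6), with the seed of bases 2 to 8 in capitals, is given with every match to the seed's 7-base complement AGCTTTA in the longest annotated 3′ UTR of each gene (GENCODE M21, GRCm38). Coordinates mark the 7 bases in capitals, all on the plus strand.
miR-9-3p: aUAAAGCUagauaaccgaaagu
Actl6a, chr3:32726640-32726646: tcaacgtctgtAGCTTTAgtacactcagg
Smarca2, chr19:26777502-26777508: catctagaactAGCTTTAgggtagtgcca
Smarcc1, chr9:110238613-110238619: gcaaagagcacAGCTTTAcaacaagccct
Smarcc1, chr9:110239441-110239447: gtgtattttaaAGCTTTAtgtatgagagc

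The match in Actl6a began at base 243 of a 3′ UTR of 376 bases. Smarca2 held 1 match and Smarcc1 held 2, and the other 7 subunit genes, Actl6b among them, held none. Of 21144 genes with an annotated 3′ UTR, 11.7% held such a match. A match is a description of letters and was not read as a working site.

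The second kind is the promoter, printed for the 3 genes that rose with both Sox11 viruses and shown because Sox proteins bind DNA directly. The lines give, 5′ to 3′ on the gene's strand, the part of the 250 bases before the RefSeq start (GRCm38.p6) up to the first base that falls in an annotated exon of the gene. The RefSeq start of Smarcc1 lies inside the annotated gene, downstream of its first base, so annotated parts of that gene also lie before the printed window.
Smarca2, chr19:26604910-26605049, plus strand: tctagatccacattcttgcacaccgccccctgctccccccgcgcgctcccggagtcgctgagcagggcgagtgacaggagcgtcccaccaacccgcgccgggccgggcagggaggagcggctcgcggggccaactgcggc
Smarcc1, chr9:110131774-110131979, plus strand: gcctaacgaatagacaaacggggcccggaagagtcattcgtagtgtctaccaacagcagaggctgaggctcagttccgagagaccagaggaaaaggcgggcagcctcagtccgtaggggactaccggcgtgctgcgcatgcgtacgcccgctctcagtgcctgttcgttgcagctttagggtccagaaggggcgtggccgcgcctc
Dpf1, chr7:29303755-29303950, plus strand: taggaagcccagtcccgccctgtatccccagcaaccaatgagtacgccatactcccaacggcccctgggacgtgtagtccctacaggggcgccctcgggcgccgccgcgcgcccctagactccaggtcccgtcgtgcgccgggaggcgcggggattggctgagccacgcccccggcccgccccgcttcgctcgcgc

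Neither ACAAAG nor AACAAT, 2 forms of the core letters that Sox HMG boxes bind, was found on either strand of the 250 bases in any of the 10 genes, which is why no capitals are printed. Among 32841 RefSeq promoters of the same length 16.5% held ACAAAG, 9.43% held AACAAT and 24% held either. The promoters of all 10 genes were richer in GC than the median promoter (52.4%), from 57.2% in Dpf2 to 88.4% in Phf10. Smarca2 (68.4% GC), Smarcc1 (63.6%), Smarcc2 (80.8%) and Dpf1 (71.6%) lay within that range. The absence of these letters from a window says nothing about binding of Sox11 elsewhere.

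Compared with control, 4 of the 10 subunit transcripts rose with Sox11 and none fell. Smarca2 rose 2.93-fold, Smarcc1 2.42-fold, Smarcc2 1.67-fold and Dpf1 1.66-fold, while neither of the actin-related subunits that define the switch passed the test. With Sox11 K91A, Smarca2 (2.52-fold), Smarcc1 (2.18-fold) and Dpf1 (1.58-fold) rose and none fell. Genes were called at an adjusted p under 0.05 and a fold change above 1.2 in limma-voom, fitted on all 15747 genes and 6 libraries. The share of all genes called was 20.1% with Sox11 (9.96% higher, 10.2% lower) and 10.6% with Sox11 K91A (5.81% higher, 4.81% lower). Both comparisons use the same 2 control libraries, so a control library that deviates moves both. No subunit fell at an unadjusted p under 0.05 in limma-voom, edgeR or DESeq2 (0 of 10 in each comparison). Without control replicate 2 and Sox11 replicate 2, a setting chosen after seeing the data, Smarca2, Smarcc1 and Dpf1 were called with Sox11, and these 3 with Smarcc2 and Dpf2 were called with Sox11 K91A.

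**Figure D1:**
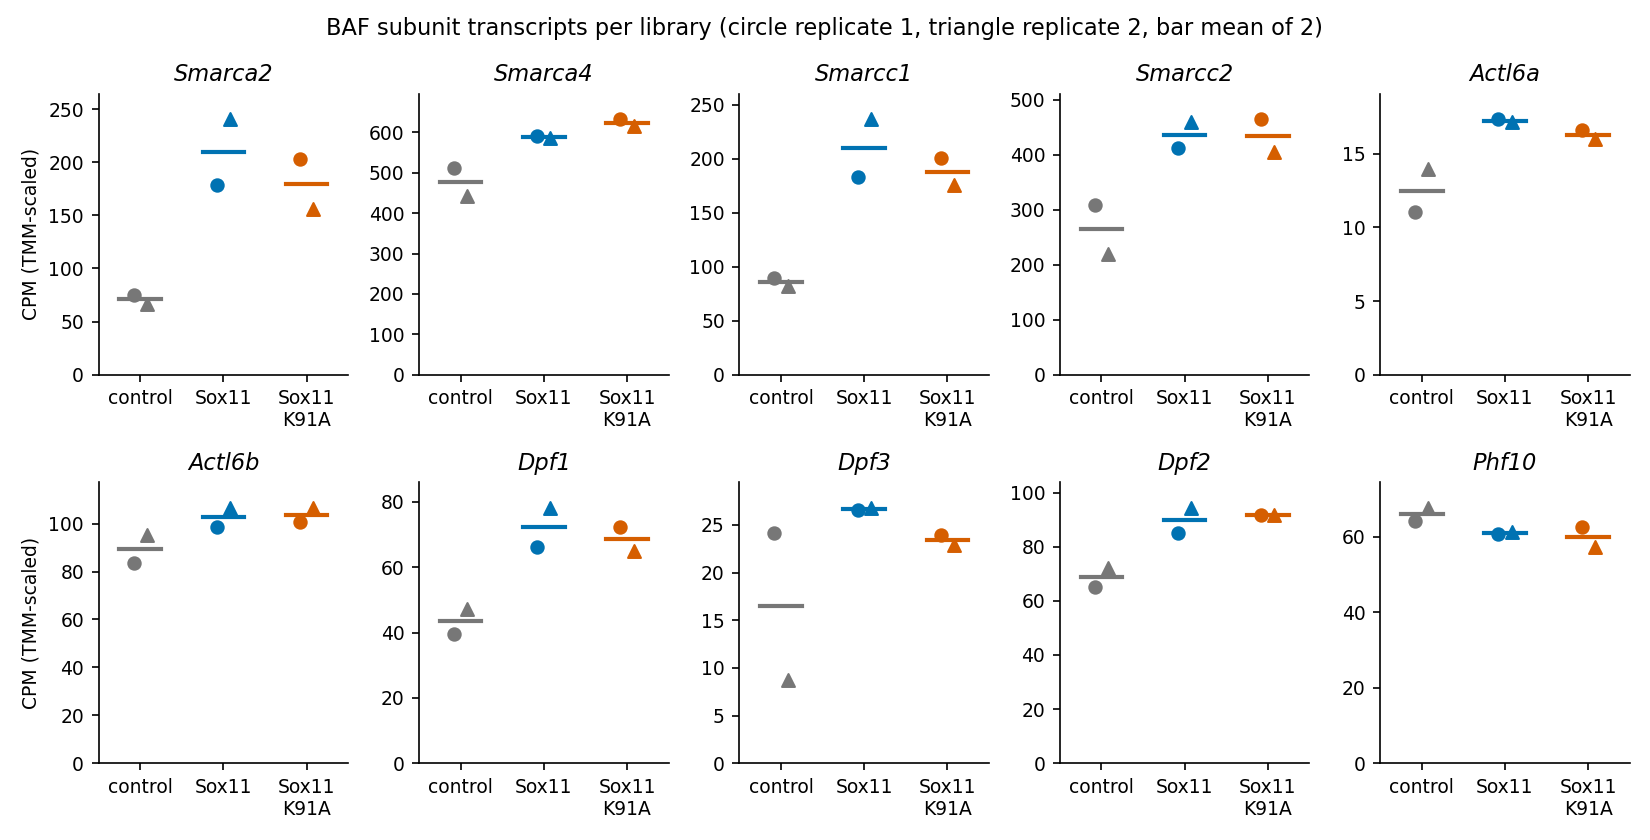
Level of each of the 10 BAF subunit transcripts (CPM, linear axis from 0) in the 2 control, 2 Sox11 and 2 Sox11 K91A libraries, with circles for replicate 1, triangles for replicate 2 and bars for the mean of 2. All 4 transduced libraries lie above both control libraries for Smarca2 (156 to 241 against 66.4 and 75.5 CPM), whereas for Dpf3 control replicate 2 (8.74 CPM) lies far below control replicate 1 (24.15 CPM).

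Among the ATPases, which drive remodelling and of which each complex holds a single one, Smarca2 (BRM) moved and Smarca4 (BRG1) did not pass the test. Smarca2 (ENSMUSG00000024921.12, chr19:26605050-26778322 on the plus strand of GRCm38) was at 75.5 and 66.4 CPM in control, 179 and 241 CPM with Sox11, and 203 and 156 CPM with Sox11 K91A. Every transduced library was thus above both control libraries, and the replicates with each virus differed more than the control replicates did. The log2 fold change was 1.55 with Sox11 (SE 0.20, adjusted p = 0.0118 from limma-voom) and 1.33 with Sox11 K91A (SE 0.20, adjusted p = 0.0199 from limma-voom). Of all genes tested, 11.8% moved further than Smarca2 in either direction with Sox11 and 11.5% with Sox11 K91A. Without Sox11 replicate 2, which leaves a single Sox11 library assumed to vary like the other groups, the adjusted p for Sox11 was 0.0765 and no gene of any kind was called in that comparison. The Sox11 K91A call of Smarca2 was lost without control replicate 2 and without Sox11 K91A replicate 1, at an adjusted p of up to 0.175 from limma-voom.

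Smarca4 (ENSMUSG00000032187.12, chr9:21616169-21704230, plus strand), the ATPase that neural progenitors depend on, was at 512 and 443 CPM in control, 591 and 587 CPM with Sox11, and 633 and 615 CPM with Sox11 K91A. The transduced libraries lay above the control libraries without overlap, with the control replicates further apart than either transduced pair. Its log2 fold change was 0.31 (SE 0.14, adjusted p = 0.163 from limma-voom) with Sox11 and 0.39 (SE 0.14, adjusted p = 0.120 from limma-voom) with Sox11 K91A. Without control replicate 1, the higher of the control libraries, Smarca4 passed the test with both viruses, at an adjusted p of 0.0462 and 0.0384 from limma-voom.

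Both scaffold subunits, which hold the core of the complex together as dimers, lay higher with the viruses. Smarcc1 (BAF155, ENSMUSG00000032481.12, chr9:110117708-110240178, plus strand), the form used in embryonic stem cells, was at 89.85 and 82.2 CPM in control, 183 and 237 CPM with Sox11, and 200.3 and 175 CPM with Sox11 K91A. No transduced library came near the control libraries. The log2 fold change was 1.28 with Sox11 (SE 0.17, adjusted p = 0.0121 from limma-voom) and 1.12 with Sox11 K91A (SE 0.17, adjusted p = 0.0199 from limma-voom). The call was lost without Sox11 replicate 2 for Sox11 (adjusted p = 0.0765), and for Sox11 K91A without control replicate 2 or without either of the 2 Sox11 K91A libraries (adjusted p up to 0.188, limma-voom).

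Smarcc2 (BAF170, ENSMUSG00000025369.10, chr10:128459248-128490482, plus strand), which joins the complex as stem cells differentiate, was at 309 and 220.5 CPM in control, 413 and 459.9 CPM with Sox11, and 465 and 405 CPM with Sox11 K91A. Both virus groups lay above control without overlap, and the control replicates lay further apart than those of either virus. The log2 fold change was almost the same with both viruses, 0.73 (SE 0.20) in each, but the adjusted p from limma-voom fell on opposite sides of the threshold, at 0.0414 with Sox11 and 0.0582 with Sox11 K91A. The Sox11 call was lost in 10 of 20 alternative settings, among them each removal of a library other than control replicate 1, and the Sox11 K91A change passed in 3 of 20, among them the removal of control replicate 1.

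The actin-related subunits, which join actin in a module that regulates the ATPase, were not called with either virus. Actl6a (ENSMUSG00000027671.10, chr3:32706298-32726973, plus strand) was at 11.0 and 14.0 CPM in control, 17.4 and 17.2 CPM with Sox11, and 16.6 and 16.0 CPM with Sox11 K91A. Actl6b (ENSMUSG00000029712.10, chr5:137553517-137569582, plus strand) was at 83.4 and 95.2 CPM in control, 98.7 and 107 CPM with Sox11, and 100.5 and 106 CPM with Sox11 K91A. In both genes each transduced library was above both control libraries, by amounts of the same order as the distance between the control replicates.

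The log2 fold change of Actl6a was 0.46 (95% interval 0.02 to 0.90, adjusted p = 0.122 from limma-voom) with Sox11 and 0.38 (SE 0.19, adjusted p = 0.227) with Sox11 K91A. That of Actl6b was 0.20 (SE 0.14, adjusted p = 0.322 from limma-voom) and 0.21 (SE 0.14, adjusted p = 0.339). Neither gene passed in any of the 20 alternative settings of either comparison. Actl6a shares its locus with Mrpl47 and Gm37353 on the opposite strand, and the use of strand in the counting was not stated. The overlap is of whole gene spans, introns included, and whether reads of these genes were counted with its own was not tested. The same holds for Smarca2 (4931403E22Rik and Gm20616), Smarcc1 (Dhx30), Dpf1 (Gm44632), Dpf2 (Gm42067) and Phf10 (1600012H06Rik), while Smarca4 holds Gm27373 on its own strand. The posterior SD that RSEM gave for the count was 2.77 to 4.1 counts for Actl6a and at most 0.69 for Phf10. It was 0 in every library for Smarca2, Smarcc1, Dpf1, Dpf2 and Smarca4. The 3 genes whose pattern over the 6 libraries lay closest to Actl6a were Ano10, 4933434E20Rik and Gsdme, with a root mean square difference in centred log2 CPM of 0.014, 0.033 and 0.035 among 13377 genes with a mean of at least 1 CPM. For Actl6b they were Ebag9 (0.025), Trnt1 (0.032) and Ykt6 (0.032).

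The PHD finger subunits, which read histone tails, split in their behaviour. Dpf1 (ENSMUSG00000030584.9, chr7:29303951-29318243, plus strand), a subunit of neuronal BAF, was at 39.6 and 47.3 CPM in control, 66.1 and 78.25 CPM with Sox11, and 72.3 and 64.85 CPM with Sox11 K91A. All transduced libraries lay above the control libraries. The log2 fold change was 0.73 with Sox11 (SE 0.16, adjusted p = 0.0273 from limma-voom) and 0.66 with Sox11 K91A (SE 0.16, adjusted p = 0.0488 from limma-voom). The Sox11 K91A value stood just inside the threshold, and its call was lost in 13 of 20 alternative settings, every removal of a single library included, against 5 of 20 for Sox11 (sample quality weights, the fit of 2 groups, and the removal of Sox11 replicate 2 or of either Sox11 K91A library).

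Dpf3 (ENSMUSG00000021221.11, chr12:83213745-83487716, minus strand), the other neuronal form, was at 24.15 and 8.74 CPM in control, 26.6 and 26.8 CPM with Sox11, and 23.9 and 22.9 CPM with Sox11 K91A. Control replicate 2 was far below the other 5 libraries, which ran from 22.9 to 26.8 CPM. The log2 fold change of 0.95 with Sox11 (SE 0.40, adjusted p = 0.127 from limma-voom) became 0.14 without control replicate 2, and that of 0.76 with Sox11 K91A (SE 0.40, adjusted p = 0.249 from limma-voom) became -0.04. Without control replicate 1 it reached 1.61 and 1.42 and passed the test.

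Dpf2 (BAF45d, ENSMUSG00000024826.10, chr19:5896516-5913010, minus strand), which is used in most cell types, was at 65.0 and 72.3 CPM in control, 85.0 and 94.5 CPM with Sox11, and 91.55 and 91.56 CPM with Sox11 K91A. Its log2 fold change was 0.39 (SE 0.14, adjusted p = 0.0851 from limma-voom) and 0.42 (SE 0.14, adjusted p = 0.0925 from limma-voom), with no overlap between either virus and control. Fitted on log2(TPM + 1), which divides by gene length, Dpf2 passed with Sox11 in place of Smarcc2.

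Phf10 (ENSMUSG00000023883.9, chr17:14945009-14961273, minus strand), the progenitor form, was the single subunit that lay lower in the transduced libraries. It was at 64.1 and 67.7 CPM in control, 60.7 and 61.3 CPM with Sox11, and 62.5 and 57.2 CPM with Sox11 K91A. Neither virus group overlapped control, but the log2 fold change was small, at -0.11 (95% interval -0.42 to 0.20, adjusted p = 0.567 from limma-voom) and -0.14 (SE 0.13, adjusted p = 0.518 from limma-voom).

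**Figure D2:**
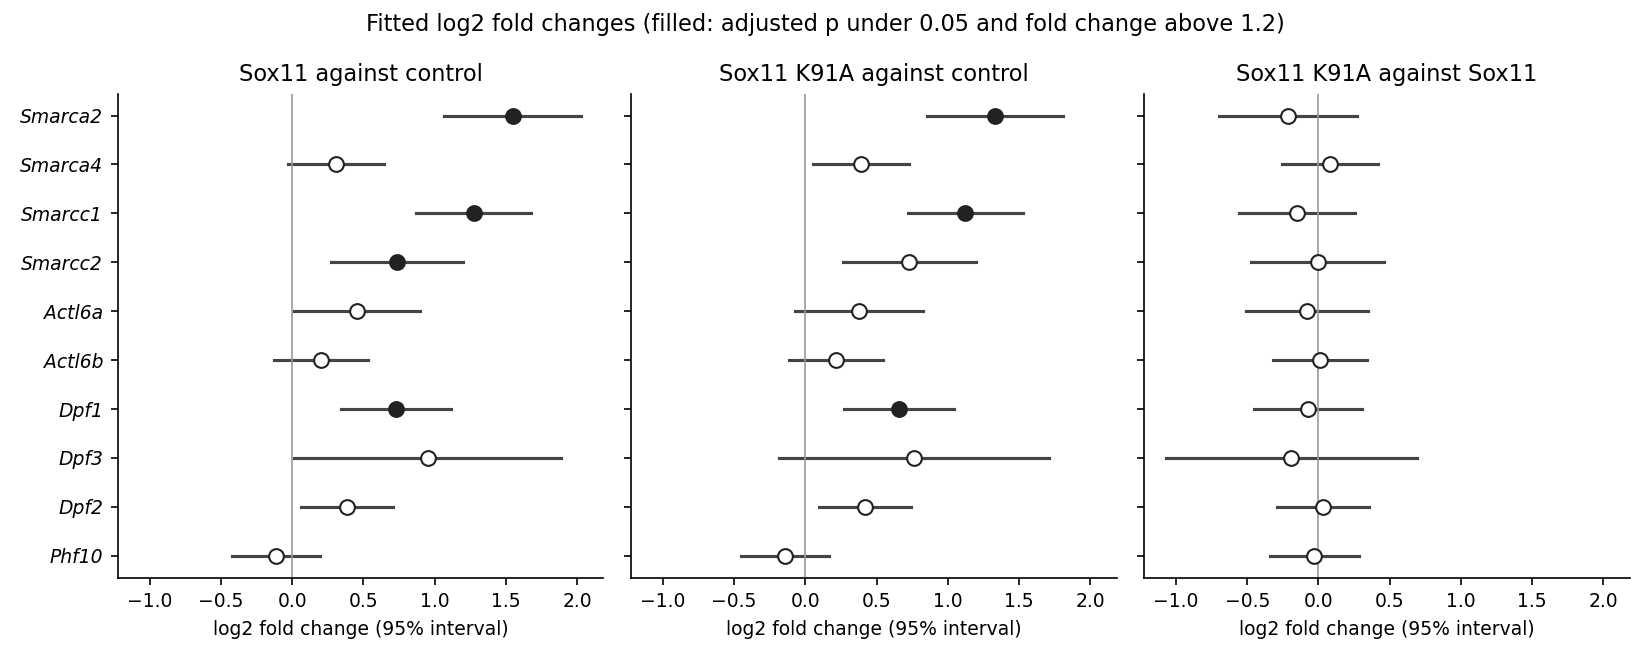
Fitted log2 fold change of each BAF subunit transcript with its 95% interval (limma-voom, 6 libraries), with 1 panel for each of the 3 comparisons and filled points for genes that were called. Smarca2 (1.55 and 1.33) and Smarcc1 (1.28 and 1.12) lie furthest to the right in both comparisons with control, and every interval for Sox11 K91A against Sox11 crosses 0.

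Counted without a threshold, the replicates of Sox11 and control did not overlap for any of the 10 subunits, with 9 higher and Phf10 lower, where 30.9% of all genes lay higher and 30.6% lower without overlap. With Sox11 K91A 8 lay higher, Phf10 lower and Dpf3 overlapped, against 31.2% and 30.7% of all genes. The median log2 fold change of the 10 was 0.59 with Sox11 and 0.54 with Sox11 K91A, where the median of all genes was 0.01 and 0.02.

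The 2 Sox11 viruses were also compared directly. Sox11 itself was at 9178 and 14590 CPM with Sox11 and at 11970 and 7026 CPM with Sox11 K91A (log2 difference -0.336). An effect of the mutation therefore cannot be told apart here from an effect of the level of Sox11. None of the 10 subunits, and none of the 15747 genes (0%), was called between Sox11 K91A and Sox11 by limma-voom, with 108 genes (0.686%) and 0 of the 10 subunits at an unadjusted p under 0.05. edgeR's quasi-likelihood test also called 0 genes, and DESeq2 called 2, neither of them a subunit. The log2 difference of Smarca2 was -0.22 (95% interval -0.70 to 0.27) and that of Smarcc1 was -0.15 (-0.56 to 0.26). The intervals of Actl6b (-0.32 to 0.34) and Phf10 (-0.34 to 0.28) were narrower, and that of Dpf3 (-1.07 to 0.69) was the widest. Differences within these bounds are compatible with the data. The intervals are not adjusted for the 15747 genes, so they are not limits of detection, and larger differences could also have gone uncalled. The replicates of 3 subunits did not overlap between these groups. Smarca4 lay higher with Sox11 K91A by 0.08 (-0.26 to 0.42), where 13.3% of all genes lay higher without overlap, and Actl6a (-0.08, -0.51 to 0.35) and Dpf3 (-0.19) lay lower, where 13.4% of all genes did.

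The proportions within each pair of alternatives were computed from TPM, which divides by gene length and allows genes to be compared. Actl6b made up 91.3% and 90.4% of the actin-related transcripts in control, 89.0% and 89.3% with Sox11, and 89.4% and 90.5% with Sox11 K91A. The neuronal form therefore held about the same large share in all 6 libraries, with means of 90.8% ± 0.693 in control, 89.2% ± 0.214 with Sox11 and 89.9% ± 0.751 with Sox11 K91A (SD, n = 2 in each). The 2 Sox11 libraries lay below the control libraries and those of Sox11 K91A overlapped them. Smarca2 made up 29.2% and 33.5% of the summed TPM of the ATPase genes in control, 45.1% and 51.2% with Sox11, and 46.4% and 39.4% with Sox11 K91A. The mean share was 31.4% ± 3.01 in control, 48.2% ± 4.32 with Sox11 and 42.9% ± 5.0 with Sox11 K91A (SD, n = 2 in each). It includes short transcripts of Smarca2, so it is not a share of full-length ATPase transcripts. The RSEM gene length was 1893 to 2379 bases for Smarca2 and 5642 to 5797 for Smarca4. In CPM, not divided by length, Smarca2 was at 70.9, 210 and 180, and Smarca4 at 477, 589 and 624 (control, Sox11 and Sox11 K91A, means of 2).

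Smarcc1 made up 19.3% and 23.4% of the scaffold transcripts in control, 26.7% and 29.8% with Sox11, and 26.1% and 26.3% with Sox11 K91A, so both viruses lay above control and Smarcc2 stayed the larger part. Among the PHD finger subunits, Phf10 made up 29.8% ± 1.10 in control, 19.6% ± 0.344 with Sox11 and 19.9% ± 0.269 with Sox11 K91A (SD, n = 2), so that neither virus overlapped control. Dpf1 made up 31.4% ± 0.496, 42.1% ± 0.767 and 39.8% ± 2.07 (SD, n = 2), again with no overlap between either virus and control, while Dpf2 and Dpf3 overlapped control with both viruses. The smaller share of Phf10 came with a level that did not pass the test in CPM while Dpf1, in the same sum, was called higher. These shares carry no test.

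**Figure D3:**
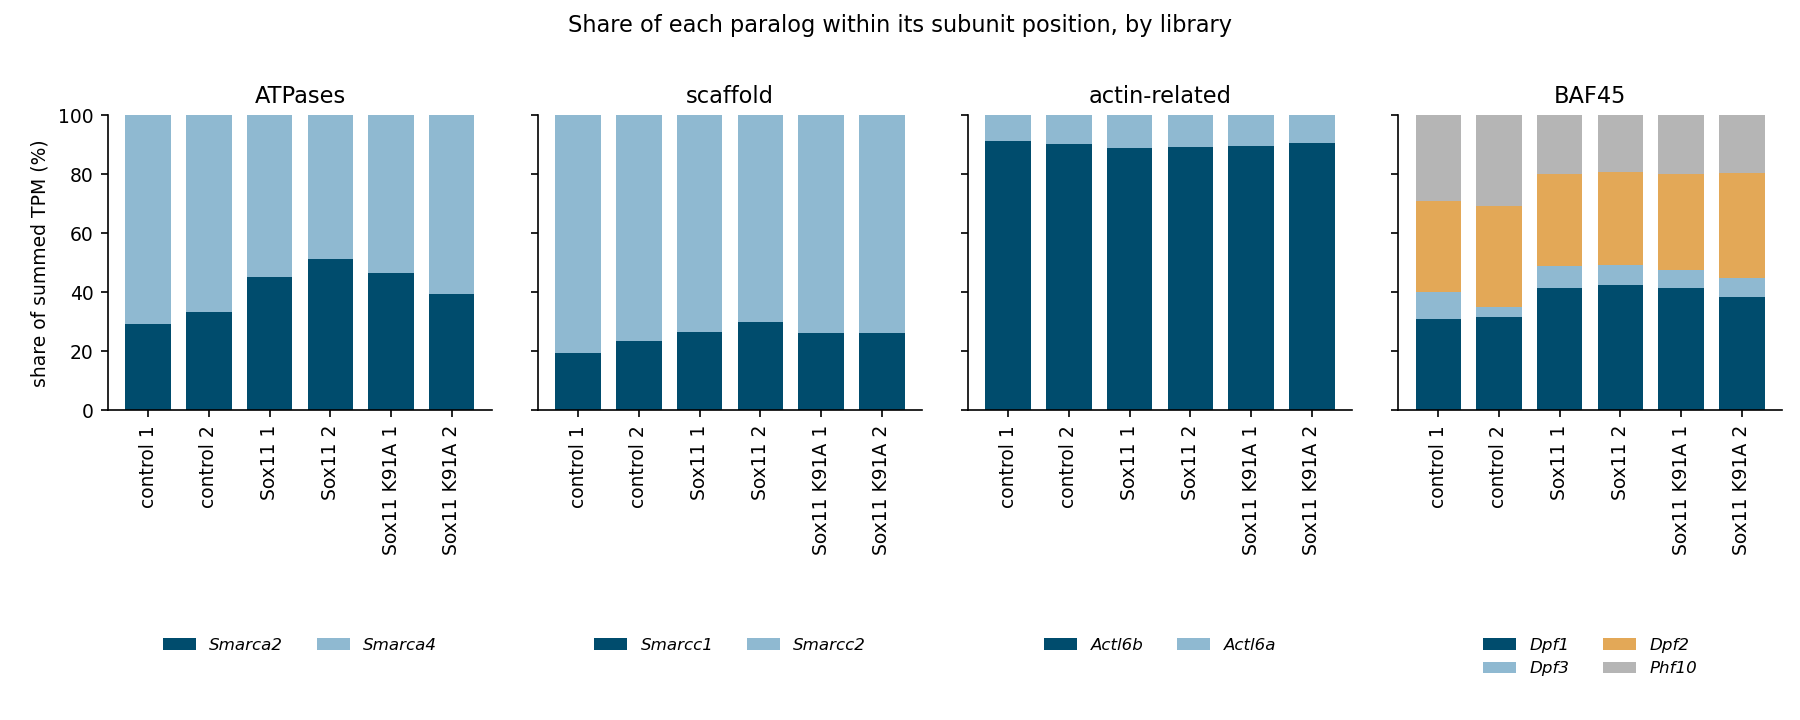
Share of each gene in the summed TPM of its subunit position (percent, stacked to 100), for each of the 6 libraries. The TPM of Smarca2 includes its short transcripts. Actl6b fills about the same part of its bar in every library (89.0% to 91.3%), whereas Smarca2 takes 45.1% and 51.2% with Sox11 against 29.2% and 33.5% in control, and Phf10 shrinks from 29.0% and 30.6% to 19.8% and 19.3%.

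In control, Smarca4 had the highest level of the 10 (162 ± 27.1 TPM, SD, n = 2), followed by Actl6b (138 ± 2.36 TPM) and Smarcc2 (112 ± 33.2 TPM), and Actl6a (14.0 ± 1.40 TPM) and Dpf3 (12.8 ± 8.87 TPM) had the lowest. Dpf2 and Dpf1, and Actl6a and Dpf3, were neighbours whose replicates overlapped. With Sox11, Smarca4 (215 TPM) lay above Smarcc2 (195 TPM) and Actl6b (179 TPM), which overlapped each other, while the replicates of Smarca2 (202 TPM) lay far enough apart to overlap all 3. With Sox11 K91A, Smarca4 (221 TPM) stood above Smarcc2 (189 TPM), Actl6b (172 TPM) and Smarca2 (168 TPM), which overlapped. The TPM of Smarca2 rests on a gene length between 1893 and 2379 bases that RSEM averaged over 19 transcripts, the longest of them 5921 bases, so the weight given to its short transcripts enters its TPM but not its CPM.

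The rest of the BAF family was examined in 21 further subunits, of which 6 rose and none fell with each virus (28.6%, against 20.1% and 10.6% of all genes called). None of the 21 was lower at an unadjusted p under 0.05 in limma-voom, edgeR or DESeq2. The median log2 fold change of the list was 0.535 with Sox11 and 0.487 with Sox11 K91A. Bcl11a and Bcl11b, zinc finger proteins that associate with BAF, and Bcl7a, a small core-associated subunit, moved furthest. Bcl11a was at 7.41 and 6.54 CPM in control, 31.8 and 54.1 CPM with Sox11, and 43.2 and 29.5 CPM with Sox11 K91A. No transduced library was near the control level, and the rise was 6.04-fold with Sox11 (log2 2.59, adjusted p = 0.0127 from limma-voom) and 2.37 on the log2 scale with Sox11 K91A (adjusted p = 0.0206 from limma-voom).

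Bcl11b rose by 1.54 and 1.41 on the log2 scale (adjusted p = 0.0241 and 0.0421, limma-voom) and Bcl7a by 1.26 and 1.17 (adjusted p = 0.0148 and 0.0251, limma-voom). Smarcd1, which links BAF to DNA-binding factors, rose by 0.82 and 0.77 (adjusted p = 0.0182 and 0.0303, limma-voom). Ss18l1 and Smarce1, named here after their values were seen, made up the rest of the 6. Ss18l1, the neuronal counterpart of Ss18, was at 77.8 and 66.9 CPM in control, 113 and 133 CPM with Sox11, and 122 and 111 CPM with Sox11 K91A (adjusted p = 0.0216 and 0.0389, limma-voom). Ss18, the progenitor form, was at 27.6 and 37.05 CPM in control, 44.8 and 68.4 CPM with Sox11, and 48.1 and 44.2 CPM with Sox11 K91A, and did not pass the test (log2 0.78 and 0.52, adjusted p = 0.0611 and 0.204, limma-voom). Both forms of this switch thus lay higher with the viruses, and the change of the neuronal form alone was called, although the difference between the 2 changes was not tested.

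Regulators of the switch were followed in 11 genes, of which 4 rose and 1 fell with Sox11 and 1 rose and 1 fell with Sox11 K91A. The share called was 45.5% with Sox11 and 18.2% with Sox11 K91A, against 20.1% and 10.6% of all genes. The median log2 fold change of the list was 0.156 and 0.142. Rest, the repressor that keeps neuronal genes and the switch microRNAs off outside neurons, was at 4.62 and 5.97 CPM in control, 15.2 and 20.2 CPM with Sox11, and 11.8 and 8.33 CPM with Sox11 K91A. It rose with Sox11 (log2 1.73, SE 0.29, adjusted p = 0.0149 from limma-voom), and with Sox11 K91A its value was 0.90 (SE 0.31, adjusted p = 0.103 from limma-voom). The Sox11 K91A libraries lay between the other groups without overlap, with a log2 difference from Sox11 of -0.83 (95% interval -1.43 to -0.22, unadjusted p = 0.0145, adjusted p = 1.00 from limma-voom).

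Rcor2, a REST corepressor, was at 13.2 and 17.1 CPM in control, 40.0 and 48.0 CPM with Sox11, and 46.5 and 40.3 CPM with Sox11 K91A, and rose with both viruses (log2 1.53 and 1.51, adjusted p = 0.0117 and 0.0162, limma-voom). Ctdspl, one of the small phosphatases that work with REST, fell with both (log2 -1.13 and -1.19, adjusted p = 0.0316 and 0.0407, limma-voom). Ptbp2, a splicing regulator of neurons, and Rcor1 rose with Sox11 (log2 0.69 and 0.58, adjusted p = 0.0478 and 0.048, limma-voom). The host transcripts Mir124-2hg (78.6 and 79.2 CPM in control) and Mir124a-1hg did not pass the test with either virus, and Mir9-3hg was at most 1.2 CPM in all 6 libraries. Mature microRNAs were not measured.

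**Figure D4:**
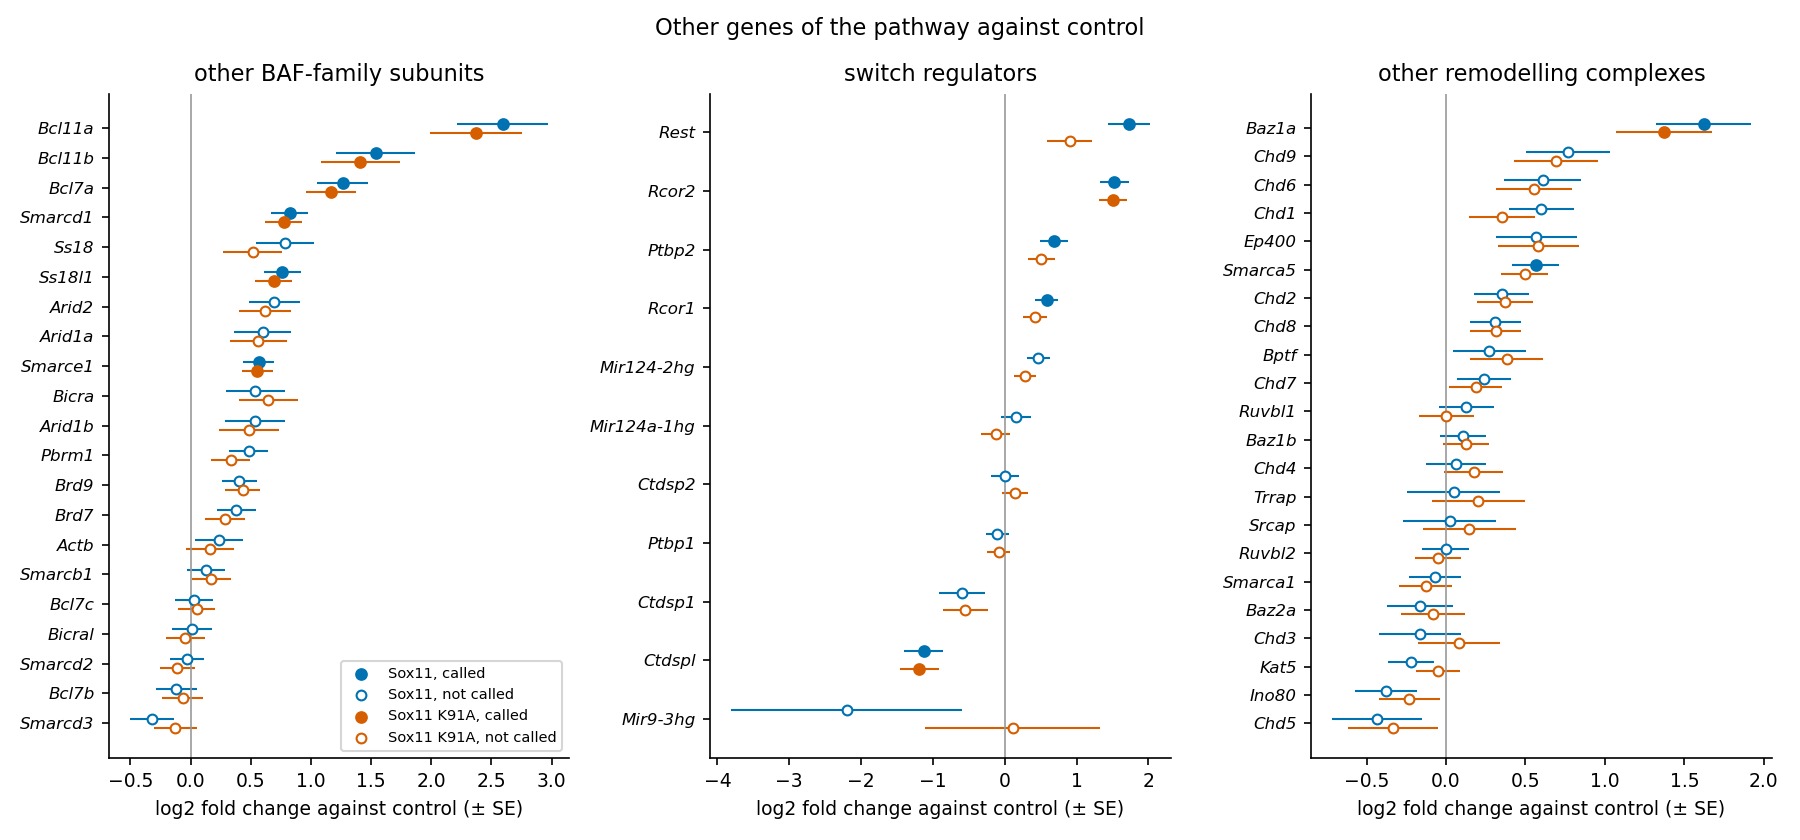
Fitted log2 fold change (± SE) against control of 21 other BAF-family subunits, 11 switch regulators and 22 genes of other remodelling complexes, with blue for Sox11, orange for Sox11 K91A and filled points for genes that were called. Bcl11a (2.59 and 2.37) stands furthest to the right among the subunits, and among the other complexes Baz1a (1.62 and 1.37) is the single gene called with both viruses.

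Remodellers outside the BAF family were examined in 22 genes of the ISWI, CHD and INO80 families and of Kat5 complexes. Of these, 2 rose with Sox11 (9.09%) and 1 with Sox11 K91A (4.55%), and none fell (0 lower at an unadjusted p under 0.05 in limma-voom, edgeR or DESeq2). The shares called higher were close to those of all genes, at 9.96% with Sox11 and 5.81% with Sox11 K91A. Of all genes 10.2% and 4.81% were called lower. Baz1a, the partner of Smarca5 in the ACF remodeller, was at 6.41 and 7.16 CPM in control, 18.2 and 23.9 CPM with Sox11, and 21.7 and 14.1 CPM with Sox11 K91A, and rose with both viruses (log2 1.62 and 1.37, adjusted p = 0.0178 and 0.0372, limma-voom). Smarca5 rose with Sox11 (log2 0.56, adjusted p = 0.0406, limma-voom). The median of the 22 was 0.12 with Sox11 and 0.18 with Sox11 K91A, against 0.59 and 0.54 for the 10 subunits described above. No test was made of that difference between lists. In all 3 lists no call against control remained for Sox11 without Sox11 replicate 2 (0 genes), or for Sox11 K91A without control replicate 2 or without Sox11 K91A replicate 1 (0 genes in each).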

How the data were processed

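RNA-seq was made from 6 libraries of cultured RGCs, 2 per group. The authors aligned reads to mm10 with STAR and counted genes with RSEM, with versions, annotation and strand setting not given in the sources used here. The deposited tables hold RSEM expected counts, not normalized (80.86% to 82.78% of nonzero values were whole), and TPM, which RSEM scaled to the same total per library. The authors' tables also hold other columns, of which gene length and the posterior SD of each count were used. That SD was at most 4.1 counts for the 10 subunits. Symbols came from GENCODE M21 on GRCm38. Numbered entries (26248, with 1 count in all) and spike-ins (96, with 0 counts) were left out.

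Expected counts were rounded, filtered with filterByExpr of edgeR (version 4.0.16) on the 3 groups, scaled by TMM (factors 0.985 to 1.04) and fitted with limma-voom (limma 3.58.1, R 4.3.3) on all 6 libraries without covariates, and p-values were adjusted by Benjamini-Hochberg over the 15747 genes. All tests are two-sided. The thresholds, an FDR under 0.05 and a fold change above 1.2, are those of the study's methods. The fitting was checked on simulated counts drawn with the spread fitted here. No simulated library deviated as control replicate 2 and Sox11 replicate 2 did, so the check does not cover such libraries. Python 3.11.15 with pandas 2.3.3 and matplotlib 3.10.9 made tables and figures. Sequencing used more than 1 lane, and the lane of each library was not given, so lanes were not compared.

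Alternatives were DESeq2 1.42.0, the quasi-likelihood test of edgeR, quality weights per sample, limma-trend on log2(TPM + 1) or log2(TPM + 0.1), DESeq2 size factors, no TMM, a laxer and a stricter filter, the 2 compared groups alone, the replicate number as a block, no fold change threshold, and each library left out. The subunits, lists and tests were chosen with earlier results of these data known. Genes named are the 10 subunits, Sox11, up to 4 called genes per direction from each of 3 lists (other BAF subunits, switch regulators, other remodelling complexes), and the 3 genes closest in pattern to Actl6a and to Actl6b. Marker lists for RGCs, retinal progenitors, proliferation, macroglia, amacrine, photoreceptor and bipolar, microglia and vascular cells were summed. Genes of these lists, and Xist, were named after their values were seen.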

Additional observations from a re-analysis of the deposited data

How the results depend on the processing

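The rise of Smarca2 and Smarcc1 kept its direction in all 20 alternatives of both comparisons with control (log2 fold change of Smarca2 1.25 to 1.75 with Sox11 and 1.15 to 1.52 with Sox11 K91A), and the calls were lost where single libraries were left out, as given above. Of the subunits' log2 fold changes under all alternatives, 545 kept direction and side of the threshold, 35 lost a call, 12 gained a call and 18 changed sign. The causes of the shifts were not tested, except that a removal leaves 1 library in a group. Leaving out each library in turn, the subunits called ranged from 0 to 6 with Sox11 (0 without Sox11 replicate 2, 6 without control replicate 1) and from 0 to 5 with Sox11 K91A (0 without control replicate 2 and without Sox11 K91A replicate 1, 5 without control replicate 1), and all genes called from 0 to 3753 and from 0 to 2563. The other BAF subunits called ranged from 0 to 10 with each virus, switch regulators from 0 to 4 and from 0 to 2, and other remodelling genes from 0 to 10 and from 0 to 7. Between Sox11 K91A and Sox11 leaving out a library gave 0 calls throughout.

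With sample quality weights, 2 subunits and 979 genes were called with Sox11, and 3, 1 and 0 genes of the other BAF, switch and remodelling lists, with 0 remodelling genes for Sox11 K91A. The fit of 2 groups gave 2 subunits, 1598 genes, 2 switch regulators and 1 remodelling gene with Sox11, and 1 switch regulator with Sox11 K91A. DESeq2 called 3144 genes and 2 remodelling genes with Sox11 K91A and 2 genes between the viruses, and edgeR called 3 switch regulators with Sox11. On log2(TPM + 1) 936 genes were called with Sox11 K91A, and on log2(TPM + 0.1) 2107 with Sox11 and 896 with Sox11 K91A. Both TPM fits gave 3 switch and 1 remodelling gene with Sox11, and 3 other BAF, 1 switch and 0 remodelling genes with Sox11 K91A. The higher share of called genes was 61.1% with Sox11 on log2(TPM + 0.1) against 49.4%. Without TMM 3 switch regulators were called with Sox11, and with all genes of at least 1 count 3 switch and 1 remodelling gene with Sox11 and 1 switch regulator with Sox11 K91A. No scaling moved the median of all genes by over 0.1.

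Deviations from group means correlated between libraries of the same number at 0.259 (control and Sox11), -0.045 (control and Sox11 K91A) and -0.282 (Sox11 and Sox11 K91A), so the replicate numbers were not taken to pair the samples. With the replicate block, 4 subunits were called with Sox11, 2 with Sox11 K91A (Dpf1 was lost) and 0 between the viruses, among 2679, 1402 and 0 genes, with 1 remodelling gene for Sox11 and 1 switch regulator for Sox11 K91A. Exchanging the Sox11 K91A numbers gave 0 genes between the viruses.

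Added after seeing the data, a block setting control 2 and Sox11 2 against the rest called 5 and 4 subunits, and 2894 genes, 4 switch and 2 remodelling genes with Sox11 K91A. Leaving both libraries out called 3 and 5 subunits, 2094 genes, 3 switch and 1 remodelling gene with Sox11, and 4108 genes and 4 remodelling genes with Sox11 K91A. The sign changed for Dpf3 with Sox11 K91A (-0.039 without these libraries, and -0.042 to 1.424 leaving out each library). All other sign changes lay in the comparison of the viruses: Actl6b (-0.054 on log2(TPM + 1), -0.055 on log2(TPM + 0.1), -0.031 to 0.067 leaving out each library), Smarcc2 (0.001 with all genes of at least 1 count, 0.074 without both libraries, -0.103 to 0.097), Dpf1 (0.055 with the added block, 0.053 without both libraries, -0.179 to 0.052), Smarcc1 (0.035 without both libraries, -0.324 to 0.035), Dpf2 (-0.032 to 0.108), Phf10 (-0.093 to 0.038) and Sox11 (-0.719 to 0.051). With CPM per kb of gene length in place of TPM, 9 of 24 mean shares moved by more than their SD and 15 did not. Depth limits Actl6a most, with 308 to 569 counts per library.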
